A study of Drosophila melanogaster with 5 samples.

Results

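The Eig71E genes (ecdysone-induced genes of polytene region 71E, also called late or L71 genes) were measured with 9 probe sets in the larval salivary glands of prepupae of the fly Drosophila melanogaster. A probe set was taken when its only annotated symbol was one of 9 listed genes, Eig71Ea and Eig71Ed to Eig71Ek, and each gene had 1 such probe set. The array gave a probe set of its own to 11982 genes, within 18769 non-control probe sets. The RefSeq gene table lists 11 Eig71E genes, and Eig71Eb and Eig71Ec were not analysed here. All 9 probe sets passed the filter on dim signals described below. The glands came from 2 groups of animals, with 3 arrays labelled as fkh-expressing glands (called fkh-labelled below) and 2 arrays of w1118. The first group carried P{hs-Fkh111}, a transgene of the gland transcription factor fork head (fkh) under a heat-inducible promoter, and so not restricted to the gland by its promoter. The second was w1118, a white-eyed laboratory strain without that transgene, written w1118(3) in the sample titles without explanation. Both groups were reared at 25 °C, and both were heat shocked at 37 °C for 30 min when 9.5 h had passed since puparium formation. Glands were taken at 14 h, so the heat shock itself is shared by the groups. By its title, the study looked for genes responsive to Fork head in glands of late prepupae. Whether glands of several animals were pooled per array is not stated in the labels, which call the arrays biological replicates.

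The polytene chromosomes of the salivary gland form visible puffs where genes are heavily transcribed. Pulses of the steroid hormone ecdysone first induce early genes that encode regulators such as br and Eip74EF, and these act on late puffs, of which 71E is one of the best studied. Most of the Eig71E genes encode small, secreted, cysteine-rich peptides and lie as closely spaced, divergently transcribed pairs, and they are among the most abundant transcripts of the prepupal gland. Eig71Ee, listed by RefSeq also as gene VII, is the exception of the cluster. It encodes a larger mucin-like protein that is made by the gland in an earlier window and has also been described in the haemolymph clot.

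Values are dChip intensities, the brightness of a probe set on a linear scale, and the highest on the arrays lay between 15810 and 16326.5 in the fkh-labelled arrays, against 15488 and 15764 in w1118. Array medians were 44.5 to 48.8 in the fkh-labelled arrays, against 49.0 and 49.3 in w1118. The fkh probe set went against the label, with 41.5, 47.0 and 58.3 in the fkh-labelled arrays, against 130 and 120 in w1118. This is a log2 fold of -1.13 (SE 0.17, limma adjusted p = 0.0026). Whether it lies in the part of fkh carried by the transgene is not known here, and all directions given are those of the labels. The actin control, whose 3' to 5' signal ratio tracks RNA integrity and labelling, had ratios of 3.37 to 4.94 in the fkh-labelled arrays, against 2.47 and 2.54 in w1118. The ratio of the eIF-4a control was 1.68 to 2.35 in the fkh-labelled arrays, against 1.53 and 1.55 in w1118. That of the GAPDH control overlapped between the groups, at 1.11 to 1.56 in the fkh-labelled arrays, against 1.14 and 1.16 in w1118.

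The 9 Eig71E probe sets fell into 3 patterns. Eig71Ee, the mucin gene and the dimmest of the 9, was about 1.62-fold brighter in the fkh-labelled arrays than in w1118. Eig71Eg and Eig71Eh, next to each other in the gene order, were 1.33-fold and 1.34-fold brighter without passing the threshold. The other 6 lay high on the scale in both groups and differed by at most 0.13 on the log2 scale. Of the 9 genes, 1 rose and 0 fell, where rose and fell mean higher or lower in the fkh-labelled arrays with a limma p under 0.05 after Benjamini-Hochberg adjustment over all 11261 probe sets tested. Over all probe sets tested 20.7% rose and 18.7% fell, so the members' share called is not above the background. At an unadjusted limma p under 0.05, 3 of the 9 were higher and 0 lower, beside 25.3% and 23.8% of all probe sets tested. The median log2 fold of the members was 0.06, against -0.01 for all probe sets tested.

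**Figure D1:**
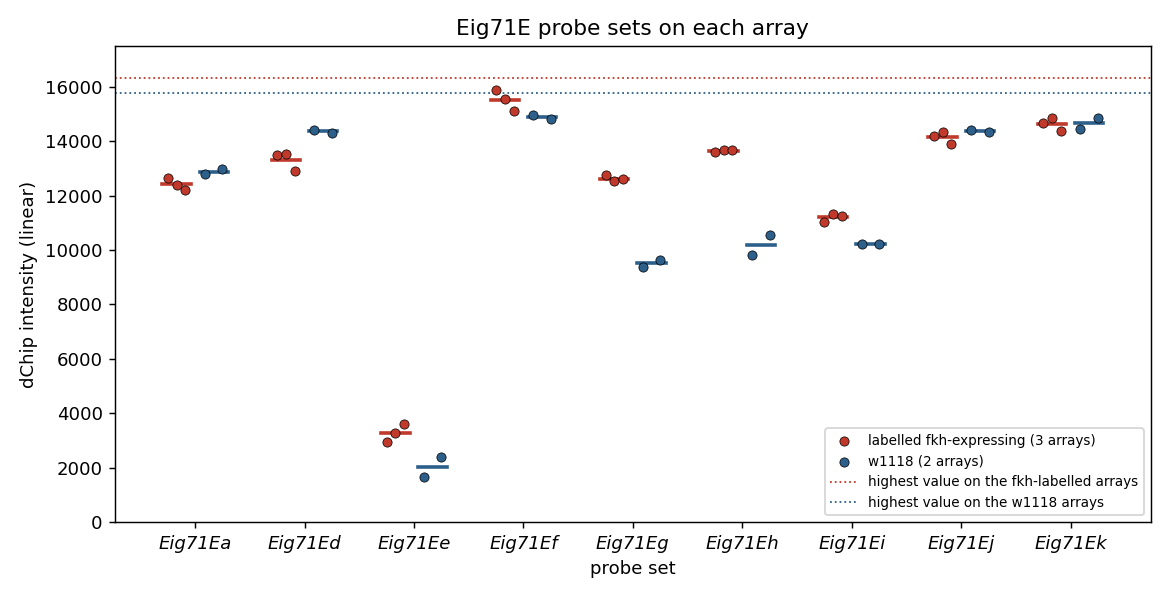
Intensity of each Eig71E probe set (linear axis) on the 3 arrays labelled fkh-expressing (red, left) and the 2 w1118 arrays (blue, right), with group means as bars and the highest value of each group's arrays as dotted lines. All but Eig71Ee sit above 9000 on every array, and of those Eig71Eg and Eig71Eh have the widest gap between the groups.

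Eig71Ee had intensities of 2952, 3288 and 3597 in the fkh-labelled arrays, against 1658 and 2394 in w1118. Every array labelled fkh-expressing lay above both w1118 arrays, and the w1118 arrays differed from each other by more than the 3 others did. The mean was 3279 ± 323 (SD, n = 3) for fkh-labelled arrays and 2026 ± 520 (SD, n = 2) for w1118. The log2 fold was 0.71 (SE 0.20, 95% interval 0.22 to 1.20, limma adjusted p = 0.033). The call rests on few arrays. Leaving out fkh-labelled array 1, 2 or 3 gave limma adjusted p of 0.057, 0.083 and 0.062. Leaving out w1118 array 1 gave 0.19 and a log2 fold of 0.45. Without w1118 array 2 the log2 fold was 0.97 and the limma adjusted p 0.026. The highest signal on the arrays lay 3.00 log2 units above the w1118 mean, so this probe set was far from the top of the scale.

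Because Eig71Ee has been described in haemolymph clots as well as in the gland, markers of blood cells and other tissues were set beside it. Over all probe sets tested, the background for each list here, 20.7% rose and 18.7% fell. At an unadjusted limma p under 0.05 these shares were 25.3% and 23.8%. Of 10 haemocyte markers tested, 0 rose and 5 fell, and the limma counts at an unadjusted p under 0.05 were also 0 and 5. Those that fell were NimC1, NimC4, crq, srp and fon. NimC4 kept the call with each array left out, NimC1 missed it without w1118 array 1 (limma adjusted p = 0.056), crq passed in 2 of these 5 fits (without fkh-labelled array 1 or 3, up to 0.143 in the others) and srp in 1 (without fkh-labelled array 3, up to 0.15). The summed signal of the 12 haemocyte markers was 3986 to 4238 in the fkh-labelled arrays, against 6920 and 6987 in w1118. Most of this sum came from crq and fon. Of these, crq had 1565, 1446 and 903 in the fkh-labelled arrays, against 2259 and 2311 in w1118. Pxn, NimC2, He, Col4a1 and vkg were not called at their brightest probe set. Of the defining markers, Hml was dim in every array, at 25.8 to 35.4 in the fkh-labelled arrays, against 39.2 and 20.0 in w1118. The phagocytosis receptor gene eater was dim as well, at 4.40 to 23.8 in the fkh-labelled arrays, against 14.5 and 21.9 in w1118. The clot protein gene fon had 1682, 1871 and 1938 in the fkh-labelled arrays, against 2825 and 2787 in w1118. The log2 fold of fon was -0.61 (limma adjusted p = 0.018), the opposite sign to that of Eig71Ee, and of the 5 fits that leave out an array it passed only without fkh-labelled array 3 (limma adjusted p 0.016 there, and 0.052 to 0.088 in the others). Of 8 fat body markers tested, 0 rose and 4 fell (limma; 0 and 5 at an unadjusted p under 0.05), and Lsp2, Fbp1, Obp44a and Obp99b were the 4. Obp44a kept the call with each array left out, and Fbp1 missed it without w1118 array 2 (limma adjusted p = 0.0502). Obp99b missed it without either w1118 array (0.078 and 0.076), and Lsp2 passed only without fkh-labelled array 3 (0.018, against up to 0.12). The summed signal of the fat body markers was 14553 to 19597 in the fkh-labelled arrays, against 34922 and 36244 in w1118. Most of this difference came from Obp99b, with means of 4977 and 13157 in the fkh-labelled and w1118 arrays, and Obp44a, with 1704 and 6483. The markers apolpp, Fbp2, Obp99a and Yp1 were not called, and apolpp overlapped between the groups (log2 fold -0.17, limma adjusted p = 0.41). Of 3 midgut markers tested 0 rose and 0 fell (limma; 0 and 0 at an unadjusted p under 0.05), and no muscle marker was bright enough to test. Of 15 salivary gland markers tested, 10 rose and 3 fell (Sgs7, fkh and eyg), with a summed signal of 54153 to 55201 in the fkh-labelled arrays, against 11781 and 14739 in w1118. Most of these markers are glue and new glue genes, and the call of eyg was lost without w1118 array 2 (limma adjusted p = 0.060). In whole glands, fewer cells of a type and less RNA per cell cannot be told apart.

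Eig71Eg and Eig71Eh encode small secreted peptides of the late gland. Eig71Eg had 12742, 12528 and 12593 in the fkh-labelled arrays, against 9391 and 9646 in w1118. Eig71Eh had 13609.6, 13668.5 and 13689 in the fkh-labelled arrays, against 9815 and 10568 in w1118. For both genes the groups were widely separated, and the gap between them was several times the spread within either. The log2 fold of Eig71Eg was 0.41 with a 95% interval of 0.07 to 0.74 (limma adjusted p = 0.058). That of Eig71Eh was 0.42 with an interval of 0.08 to 0.76 (limma adjusted p = 0.054).

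The standard error of both, 0.14, came mainly from the spread of all other probe sets and not from these genes. Their own residual SD within groups was 0.019 for Eig71Eg and 0.044 for Eig71Eh on the log2 scale, whereas the median over all tested probe sets was 0.21. limma moves each probe set's variance toward 1 value shared by all, and this raises it for probe sets as steady as these. Across the 8 bright members the residual SD was 0.017 to 0.044, and it was 0.24 for Eig71Ee. The bright range as a whole shared the small spread: the 145 probe sets with a mean above 9000 had a median residual SD of 0.046.

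**Figure D2:**
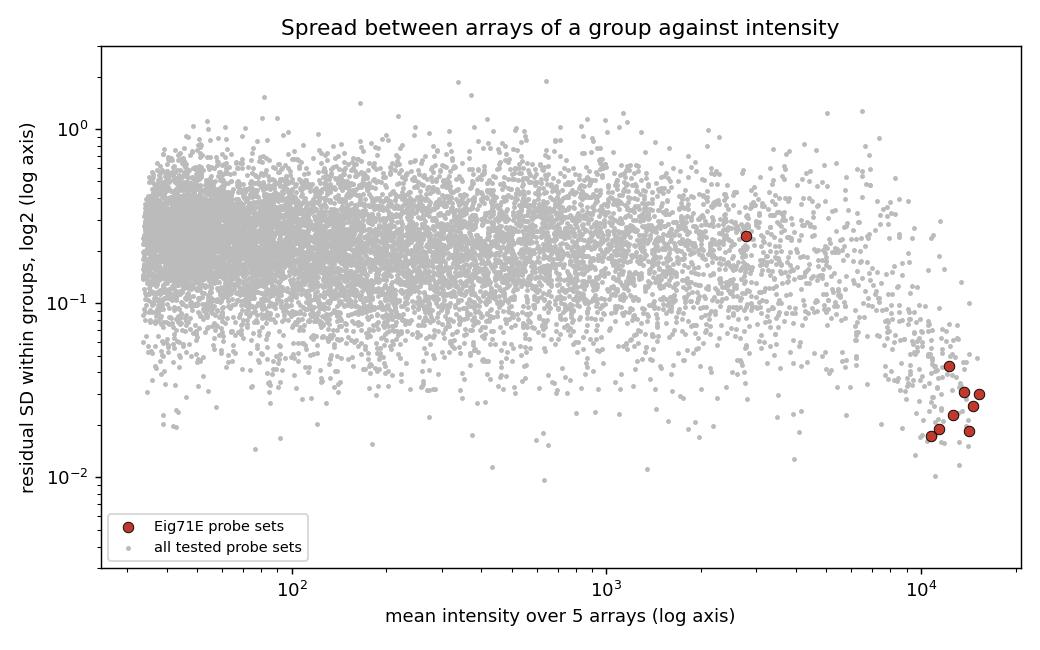
Residual standard deviation within groups (log2, log axis) against mean intensity over the 5 arrays (log axis) for the Eig71E probe sets (red) and all tested probe sets (grey). The 8 bright Eig71E probe sets lie at 0.017 to 0.044, far under the median of 0.21, where the cloud bends down near the top of the scale.

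When the shared variance was allowed to follow the intensity, the standard errors of the 8 bright members were 0.052 to 0.061. Eig71Eg and Eig71Eh then passed the threshold (limma with an intensity trend, adjusted p = 0.0013 and 0.0014), as did Eig71Ee (adjusted p = 0.017). That setting called 3 of the 9 members higher and 0 lower, beside 20.8% and 18.8% of all probe sets tested. With the intensity trend and each array left out in turn, a combination chosen after seeing the data, the limma adjusted p of Eig71Eg was 0.00081 to 0.011 and that of Eig71Eh 0.0011 to 0.0098. Eig71Ee then missed the threshold without fkh-labelled array 2 (limma adjusted p = 0.052) and without w1118 array 1 (0.098).

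**Figure D3:**
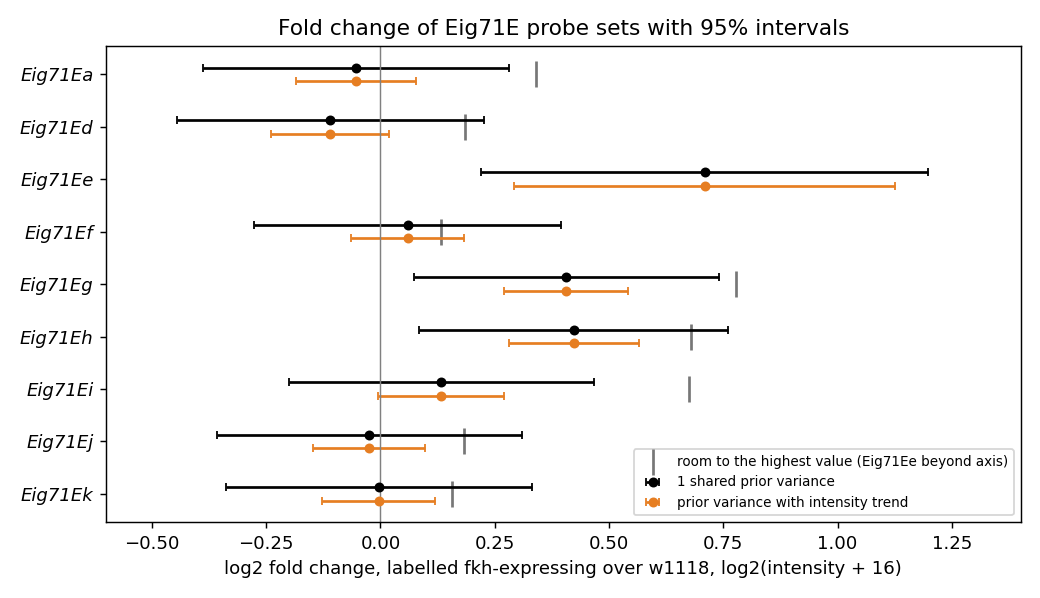
Log2 fold change of each Eig71E probe set, labelled fkh-expressing over w1118, with 95% intervals from 1 shared prior variance (black) and from a prior variance with an intensity trend (orange), and the room between the w1118 mean and the highest value on any array (grey bars; 3.00 for Eig71Ee, beyond the axis). Both the black and the orange intervals exclude 0 for Eig71Ee, Eig71Eg and Eig71Eh, and the orange ones are narrower.

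The other 6 genes, all of the small secreted peptides, had signals between 11018 and 15875 in the fkh-labelled arrays, and between 10213 and 14969 in w1118. Their log2 folds ran from -0.11 to 0.13, and their limma adjusted p from 0.49 to 0.99. The 95% intervals lay between -0.45 and 0.47 in all 6, and differences up to that size in the signal are within them.

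Eig71Ef was the brightest probe set of the family, with 15875, 15568 and 15109.7 in the fkh-labelled arrays, against 14969 and 14806 in w1118. The groups did not overlap, but the log2 fold was 0.06. Eig71Ei had 11018, 11329 and 11256 in the fkh-labelled arrays, against 10214.5 and 10213 in w1118, and the groups did not overlap either, with a log2 fold of 0.13. Eig71Ek overlapped, with 14653, 14835 and 14371 in the fkh-labelled arrays, against 14439 and 14869.8 in w1118.

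The remaining genes of this group had lower signals in every array labelled fkh-expressing. Eig71Ed had 13486, 13534 and 12916 in the fkh-labelled arrays, against 14413 and 14316 in w1118, a log2 fold of -0.11. Eig71Ea had 12651, 12394 and 12198 in the fkh-labelled arrays, against 12804 and 12966 in w1118, a log2 fold of -0.05. Eig71Ej had 14176, 14339.5 and 13908 in the fkh-labelled arrays, against 14422 and 14349 in w1118, a log2 fold of -0.02, which was 0.01 after quantile normalization and 0.02 after centring each array on its median. None of these 3 passed the threshold in any fit run, and the lowest limma adjusted p among them over all those fits was 0.149. Over the family, all arrays labelled fkh-expressing were higher for 5 genes and lower for 3. Groups that do not overlap are common on these arrays: 31.6% of probe sets tested were higher in every array labelled fkh-expressing, and 32.1% lower.

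The room left on the scale differed between the members. From the w1118 mean of each bright gene to the highest signal on any array, 16326.5, the room was 0.13 log2 units for Eig71Ef, 0.16 for Eig71Ek and 0.18 for both Eig71Ed and Eig71Ej. It was 0.34 for Eig71Ea, 0.68 for Eig71Ei and Eig71Eh, and 0.78 for Eig71Eg. For all 8 genes a 2-fold rise of the signal would have exceeded the highest value on any array. Whether the signal is saturated there is not known from these values. Eig71Eh and Eig71Ei had means of 13656 and 11201 in the fkh-labelled arrays, against 10191 and 10214 in w1118, so they had the same room. Eig71Eh covered 62.2% of its room, Eig71Eg 52.3% and Eig71Ei 19.6%. The log2 difference of Eig71Eh over Eig71Ei was 0.30, 0.27 and 0.28 in the fkh-labelled arrays, against -0.06 and 0.05 in w1118. The groups differed by 0.29 in this quantity, which is given without a test because the pair was chosen after its values were seen.

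The brightest named probe sets outside the family show what else lay in this range. They were chosen, 10 in all, by their mean over all 5 arrays, and some of them are given here. The choice favours genes bright in both groups, so their small differences are a description only. Ect3, a beta-galactosidase gene, had 13126, 12927 and 14005 in the fkh-labelled arrays, against 15764 and 15488 in w1118, and no call (limma adjusted p = 0.25). Idgf3, a chitinase-like secreted growth factor, had 15449, 15553 and 14952 in the fkh-labelled arrays, against 12269.8 and 11484 in w1118 (log2 fold 0.37, limma adjusted p = 0.082). The ribosomal protein genes RpLP1, RpL15, RpL41 and RpS18 had log2 folds of -0.11, -0.05, 0.01 and -0.04. The 3' probe set of the cre spike read 13676, 13540 and 15262 in the fkh-labelled arrays, against 15472 and 14809.5 in w1118. This is the hybridisation control added in the largest amount, and it read in the same range as the Eig71E genes. Another such control, bioC, read 1240, 1394 and 2066 at a 3' probe set in the fkh-labelled arrays, against 1832 and 1772 in w1118. There fkh-labelled array 3 lay nearer to w1118 than to the other fkh-labelled arrays. A 3' probe set of the bioB control divided this way too, with 331, 297 and 558 against 532 and 456. So did a 3' probe set of the bioD control, with 3576, 3621 and 5337 against 4831 and 4904. Another bioD 3' probe set did not, with 5299, 5175 and 5886 against 4637 and 4616, and nor did the bioD 5' probe sets. The part of such array differences in the results here was not tested.

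**Figure D4:**
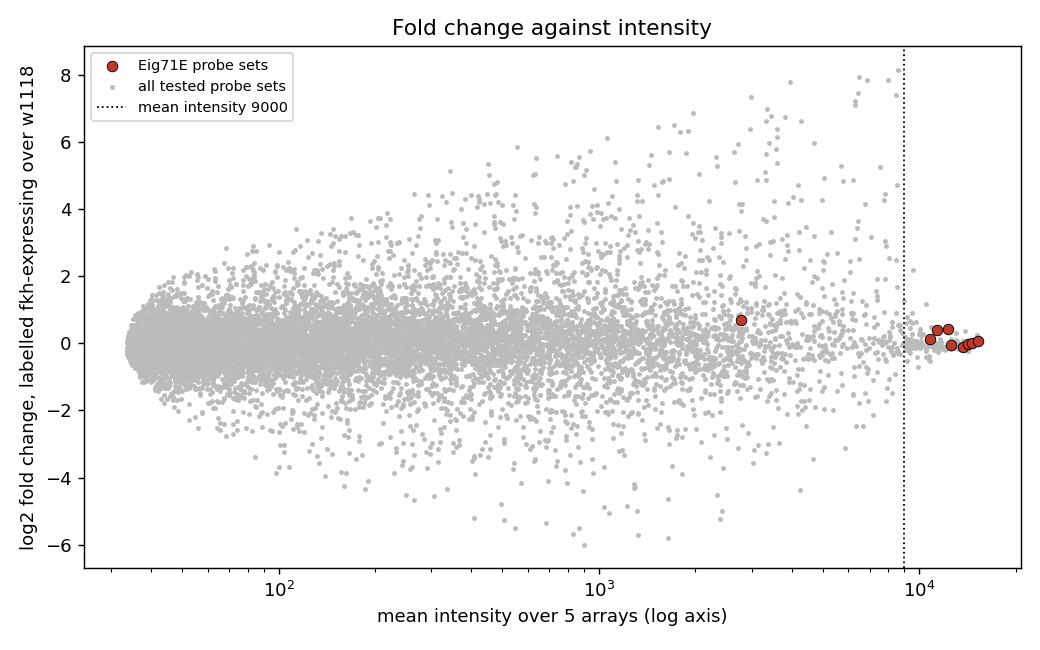
Log2 fold change, labelled fkh-expressing over w1118, against mean intensity over the 5 arrays (log axis) for the Eig71E probe sets (red) and all tested probe sets (grey), with a dotted line at 9000. Beyond the line, where 8 of the 9 Eig71E probe sets lie, log2 folds run from -0.70 to 2.18; the axis is a mean over both groups, so a probe set bright in 1 group only tends to fall to the left of the line.

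The genes around the family gave a view of the same region at lower signal. In the RefSeq order of chromosome arm 3L, CG43084 is the one gene between the outermost members that is not named Eig71E. CG43084, a protein-coding gene of no role known here, had 261, 198 and 267 in the fkh-labelled arrays, against 8.47 and 15.7 in w1118. It was dim in both w1118 arrays and rose by 3.20 (SE 0.20, limma adjusted p = 5.8e-05). Its call held with each array left out in turn (limma adjusted p 0.00025 to 0.0011).

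Of the 20 genes that flank the family, 10 on each side, 11 were tested at their brightest probe set, 8 on one side and 3 on the other. Of these 2 rose and 4 fell, beside 20.7% and 18.7% of all probe sets tested. On one side RhoGAP71E, a GTPase-activating protein gene, fell to 977, 1080 and 733 in the fkh-labelled arrays, against 5776 and 6017 in w1118. Its log2 fold was -2.66 (limma adjusted p = 0.00013), and its other probe sets had -4.63 and -4.99. CG13449, comm3 and CG7656 fell as well, with log2 folds of -2.01, -1.34 and -0.98. On the other side, comm2 and comm, which act on the axon guidance receptor Robo in the embryo, rose by 1.98 and 1.72. These 6 calls held with each array left out. CG7650, on the same side as RhoGAP71E, was not called at its brightest probe set (log2 fold 0.54), but rose at its other probe sets by 1.03 and 0.57. Those calls passed in 4 and 1 of the 5 fits that leave out an array, the larger one missing without w1118 array 2 (limma adjusted p = 0.061) and the smaller one passing only without fkh-labelled array 3 (0.027).

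**Figure D5:**
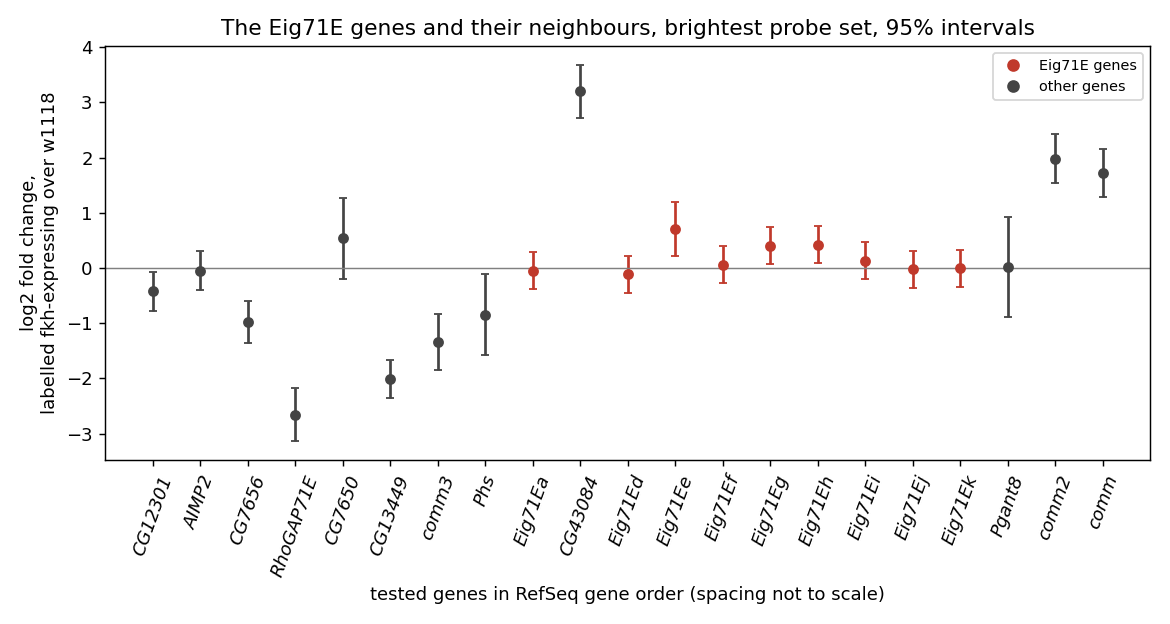
Log2 fold change with 95% intervals of the tested genes in RefSeq order around the Eig71E genes (red), at each gene's brightest probe set; other genes are dark grey and spacing is not to scale. CG43084 stands at 3.20 inside the family, 4 genes on the left are called lower and comm2 and comm on the right are called higher.

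The regulators of the ecdysone cascade that leads to the late puffs were split. Of 15 listed factors 11 were tested at their brightest probe set, of which 2 rose and 4 fell, beside 20.7% and 18.7% of all probe sets tested. EcR, the ecdysone receptor, and the nuclear receptor Hr78 rose by 1.18 and 1.02. The nuclear receptors Eip78C, Hr38 and Hr39 and the stage factor Eip93F had log2 folds of -2.17, -3.85, -0.75 and -0.59. The call of this Hr39 probe set was lost without either w1118 array (limma adjusted p = 0.10 and 0.069), but the gene's other 3 probe sets fell too, with log2 folds of -1.16, -1.46 and -1.58, and those with the 2 largest folds kept the call with each array left out. The call of Eip93F was lost without fkh-labelled array 1 or 3 or either w1118 array. A dimmer Eip93F probe set went the other way, higher in every fkh-labelled array but not called (log2 fold 0.65, limma adjusted p = 0.087). Hr38 fell under the filter without w1118 array 2. Eip74EF, a regulator of the 71E genes, was not analysed here. The brightest br probe set, for the zinc-finger regulator of the late genes, had 6495, 5793 and 7520.1 in the fkh-labelled arrays, against 4299 and 5789.5 in w1118. Its groups were separated by a narrow margin and it did not pass (log2 fold 0.39, limma adjusted p = 0.16). Of the other br probe sets, 2 rose, by 1.02 and 1.35 (limma adjusted p = 0.017 and 0.029), in 3 and 2 of the 5 fits that leave out an array. The first missed without fkh-labelled array 2 or w1118 array 1 (0.052 and 0.091), and the second without fkh-labelled array 2 or either w1118 array (0.065, 0.115 and 0.117).

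The glue and new glue genes, the other main secretion of the gland, were mostly called. Of 12 tested, 9 rose and 1 fell (Sgs7), beside 20.7% and 18.7% of all probe sets tested. Their median log2 fold was 3.03, beside -0.01 for all probe sets tested. Sgs8 was lower and ng2 higher in every fkh-labelled array, but neither was called (log2 folds -0.64 and 0.81, limma adjusted p = 0.10 and 0.056). Sgs5bis, a glue gene, had 12571, 12499.5 and 12120.5 in the fkh-labelled arrays, against 225 and 419 in w1118, within the range of the Eig71E genes in the first group and low on the scale in the second. Sgs7 had 2881, 2697 and 2449 in the fkh-labelled arrays, against 3491 and 4596 in w1118, and of the 5 fits that leave out an array it passed only without w1118 array 1 (limma adjusted p = 0.046). Some fat body and haemocyte markers and the actin control ratio, given above, differ between the same arrays for every result here. Their part in these differences was not tested.

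Over the 5 arrays, the probe sets most like Eig71Ee in profile were those of CG17111, CG43658, CG1910, br and CG13321. Their Pearson correlations with it were 0.999, 0.997, 0.997, 0.995 and 0.994, and 160 of 9053 named probe sets had one above 0.95. All 5 had, like Eig71Ee, w1118 array 1 lowest, w1118 array 2 next, and fkh-labelled array 3 highest. They were picked for this likeness, so the shared order follows largely from the choice. CG17111 was dim, at 46.1 to 54.6 in the fkh-labelled arrays, against 24.4 and 35.7 in w1118. Its call was lost with each array left out in turn, and CG1910 was not called (limma adjusted p = 0.051). CG43658 had 2964, 3825 and 4166.5 in the fkh-labelled arrays, against 1338 and 2214 in w1118. This br probe set, the one given above with a log2 fold of 1.02, had 1042, 1277 and 1284 in the fkh-labelled arrays, against 449 and 755 in w1118.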

How the data were processed

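Salivary glands were lysed in TRIzol, the RNA was cleaned on an RNeasy column, and biotin-labelled cRNA was hybridised to 5 Affymetrix 1-colour arrays, per the labels' protocols. The authors deposited intensity values, 1 per probe set, made with dChip and scaled to a common baseline array (median intensity 134), per the series' design text. No source used here states the version, the expression model or the background step. The linear scale was read from the values.

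Values were transformed as log2(intensity + 16), so the folds of dim probe sets are understated. Control probe sets (183) were left out, and probe sets were kept when their mean log2 value over the 5 arrays lay above the 40th percentile (5.62), which left 11261. The fit used limma 3.58.1 (R 4.3.3, two-sided, residual degrees of freedom 3, prior 3.63, Benjamini-Hochberg threshold 0.05). It was run on all kept probe sets, and also on simulated data with means and spreads taken from these arrays. There it recovered 0 of 45 changes of 1.5-fold, 12 of 39 of 2-fold, 33 of 40 of 4-fold and 34 of 34 of 16-fold. Few probe sets were changed in the simulated data, unlike in the arrays. Symbols came from the platform annotation, which gives 1 symbol for 13647 probe sets. Gene order came from RefSeq Release 6, without coordinates. Members, lists, named genes and alternatives were chosen with earlier results of these data known. All 9 members are described, with fkh and the 5 probe sets most alike. From the lists, the 10 flanking genes on each side and the 10 brightest other probe sets, only some genes are named. The number of arrays limits the precision. Figures were drawn with matplotlib 3.10.9.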

Additional observations from a re-analysis of the deposited data

How the results depend on the processing

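The number of members called higher was 1, and 0 were called lower in any setting run. It was 3 with a constant of 64, with a filter at the 60th percentile and with an intensity trend in the prior variance, and 2 after array median centring. It was 0 without a filter and with only fkh-labelled array 3 against both w1118 arrays, and 0 to 1 with 1 array left out. With the intensity trend and 1 array left out, added after seeing the data, it was 2 to 3. The median log2 fold of the members, 0.06, was 0.10 after array median centring and 0.02 with only fkh-labelled array 3, and 0.04 to 0.08 with 1 array left out. Eig71Ee missed the threshold without a filter (limma adjusted p = 0.055) and with fkh-labelled array 3 alone (0.11, log2 fold 0.85), a fit that takes the spread from the w1118 pair and the prior, and assumes that the lone array varies alike. Eig71Eg and Eig71Eh had limma adjusted p of 0.021 and 0.020 with a constant of 64, and 0.035 and 0.033 with the stricter filter. The log2 fold of Eig71Ej changed sign to 0.0096 after quantile normalization and 0.018 after median centring. That of Eig71Ek, -0.0034, became 0.0060 and 0.039 in these, 0.0089 with the replicate block and without fkh-labelled array 3, and -0.025 to 0.018 over the fits that leave out 1 array. The causes of these changes were not tested. A change of filter alters the shared variance as well as the number of probe sets tested. The standard error of Eig71Eg was 0.17 without a filter, 0.14 in the main fit and 0.12 with the filter at the 60th percentile. Same-numbered arrays deviated from their group means with correlations of 0.077 and -0.11. The deviations of the 2 w1118 arrays mirror each other, so this check cannot decide whether the numbers pair the arrays. They were not taken to do so. With the replicate number as a block, 1 member was called higher, Eig71Ee, with a log2 fold of 0.64 (limma adjusted p = 0.049), the median of the members was 0.08 and the fkh log2 fold was -1.23. The fkh probe set was lower in all 19 fits that kept it, and the filter at the 60th percentile did not. The bright members lay within 0.78 log2 units of the highest signal, and whether it is saturated there is not known.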
